A study of Mus musculus with 6 samples.

Results

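Metallothioneins are small cysteine-rich proteins that bind zinc and copper, and 3 metallothionein genes and 4 zinc transporter genes were followed here in the mouse retina. The genes were Mt1, Mt2 and Mt3, the zinc exporter gene Slc30a1, and the metal importer genes Slc39a8, Slc39a12 and Slc39a14, chosen by name as 7 of the 54532 genes in the deposited count table. All 7 had 1 gene ID each and enough counts to be tested, though Mt2 only through its OIR libraries. Retina of OIR mice was compared with retina of normal mice. OIR stands for oxygen-induced retinopathy, a model in which raised oxygen stops vessel growth in the young retina and a later spell in room air leaves it short of oxygen and prone to abnormal new vessels. All mice were wild-type C57BL/6J at postnatal day 17, with 3 libraries per group made from total RNA. The sources used here do not give the oxygen schedule. The labels do not say whether each library came from a separate animal. By Xist and Y-linked transcripts, both sexes occurred among the libraries of each group, so no group came from a single animal. Part of the spread among these libraries may still be technical, and the p-values speak of that spread alone. The series was designed to look for a target linked to hypoxia-driven vessel growth in the retina.

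Slc39a proteins bring zinc into the cytosol, Slc30a proteins export it or move it into vesicles, and metallothioneins bind it, which keeps free zinc low. The transcription factor MTF1 senses zinc and binds metal response elements, or MREs, in the promoters of Mt1, Mt2 and Slc30a1. Mt1 and Mt2 are also known to respond to glucocorticoids, oxidative stress and cytokines, while Mt3 is found mainly in the nervous system and responds little to metals. In the eye, metallothioneins are known in Müller glia, astrocytes and the pigment epithelium, and zinc is abundant in the outer retina and the pigment epithelium.

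The promoter windows of the 3 metallothionein genes and of Slc30a1 are shown because Mt1, Mt2 and Slc30a1 are the classical genes with MREs, while Mt3 is the related gene next to Mt1 and Mt2. Each window runs from 250 bases before to 50 bases after the gene's start in RefSeq (GRCm38.p6), and all 4 genes lie on the plus strand. Capitals mark the core of the MRE, searched as TGCACNC or TGCGCNC on both strands, and no matches overlapped. The windows lie at chr8:94178839-94179138 for Mt1, chr8:94172368-94172667 for Mt2, chr8:94152357-94152656 for Mt3 and chr1:191906531-191906830 for Slc30a1.
Mt1: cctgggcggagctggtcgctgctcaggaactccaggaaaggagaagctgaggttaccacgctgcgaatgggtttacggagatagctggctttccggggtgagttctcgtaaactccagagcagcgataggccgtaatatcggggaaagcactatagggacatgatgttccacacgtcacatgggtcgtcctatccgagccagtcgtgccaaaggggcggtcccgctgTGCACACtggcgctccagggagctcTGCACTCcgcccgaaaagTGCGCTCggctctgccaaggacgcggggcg
Mt2: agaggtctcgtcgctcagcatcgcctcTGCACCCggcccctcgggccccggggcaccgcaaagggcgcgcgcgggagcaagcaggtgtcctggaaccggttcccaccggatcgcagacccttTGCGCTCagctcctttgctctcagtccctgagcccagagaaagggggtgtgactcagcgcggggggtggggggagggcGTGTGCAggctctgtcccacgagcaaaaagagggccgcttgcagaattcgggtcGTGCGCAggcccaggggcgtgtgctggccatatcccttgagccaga
Mt3: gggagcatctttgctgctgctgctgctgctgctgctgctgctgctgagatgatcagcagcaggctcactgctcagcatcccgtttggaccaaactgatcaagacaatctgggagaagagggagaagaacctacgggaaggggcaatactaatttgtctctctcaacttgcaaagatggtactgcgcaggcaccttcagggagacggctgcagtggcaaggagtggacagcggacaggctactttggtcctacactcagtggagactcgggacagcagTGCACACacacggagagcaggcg
Slc30a1: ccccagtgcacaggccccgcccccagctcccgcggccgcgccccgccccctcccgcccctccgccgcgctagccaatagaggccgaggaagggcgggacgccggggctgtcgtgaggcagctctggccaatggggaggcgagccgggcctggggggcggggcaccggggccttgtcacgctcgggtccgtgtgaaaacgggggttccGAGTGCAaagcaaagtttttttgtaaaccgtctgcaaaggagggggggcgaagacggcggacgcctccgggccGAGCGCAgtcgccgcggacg
The Mt1 window held 3 matches, the Mt2 window 4, the Slc30a1 window 2 and the Mt3 window 1. Some lay after the RefSeq start: in the Mt1 window at bases 253 to 259 and 271 to 277, in Mt2 at 255 to 261. The only Mt3 match, at 278 to 284, and 1 of Slc30a1, at 281 to 287, did too. The Mt2 start deposited with the counts, 94172664, lies near the end of its window. By that start, all 4 Mt2 matches lie upstream. Which starts were used in these retinas was not tested. Among 32851 promoter windows of the same length, 25.7% held at least 1 match, 7.11% at least 2, 1.97% at least 3 and 0.517% at least 4. The windows of Slc39a12 held no match, and of 2 windows for Slc39a8 the second held 1. A match describes letters and does not show binding.

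The libraries held 16567344 to 17023587 counts in OIR retina and 15818168 to 17163513 counts in normal retina, and 17108 genes were tested. An adjusted p under 0.05 in the quasi-likelihood test of edgeR was reached by 3394 genes, 1901 higher and 1493 lower in OIR retina, and the median log2 change was 0.01. The rod markers summed to 41300 to 46000 CPM in OIR libraries and 49900 to 54000 CPM in normal libraries, where CPM is counts per 1e6 counts after TMM scaling, so defining genes of retina were abundant in every library. OIR library 3 stood apart in lens crystallin and other lens genes, which summed to 5290 CPM there, to 71.7 and 317 CPM in OIR libraries 1 and 2, and to 6.53, 326 and 314 CPM in normal libraries 1, 2 and 3. Without OIR library 3, the log2 changes were 2.01 for Mt1, 2.82 for Mt2, 0.87 for Slc39a8 and -1.19 for Slc39a12, and the same 4 genes passed. By Xist and Y-linked transcripts, 1 OIR library and 2 normal libraries came from males.

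Of the 7 genes, Mt1, Mt2 and Slc39a8 rose in OIR retina, Slc39a12 fell, and Mt3, Slc30a1 and Slc39a14 did not pass the test. Of all genes tested, 19.8% passed, 11.1% higher and 8.73% lower in OIR retina. The groups of 3 libraries did not overlap in CPM for 5 of the 7 genes, against 36.8% of all genes tested, and the 2 genes with overlapping groups were Slc30a1 and Slc39a14. The 7 genes were chosen with earlier results of these data known, so setting their shares beside those of all genes is no test. In whole retina, more cells of a type and more RNA per cell cannot be told apart, and this holds for every result below.

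**Figure D1:**
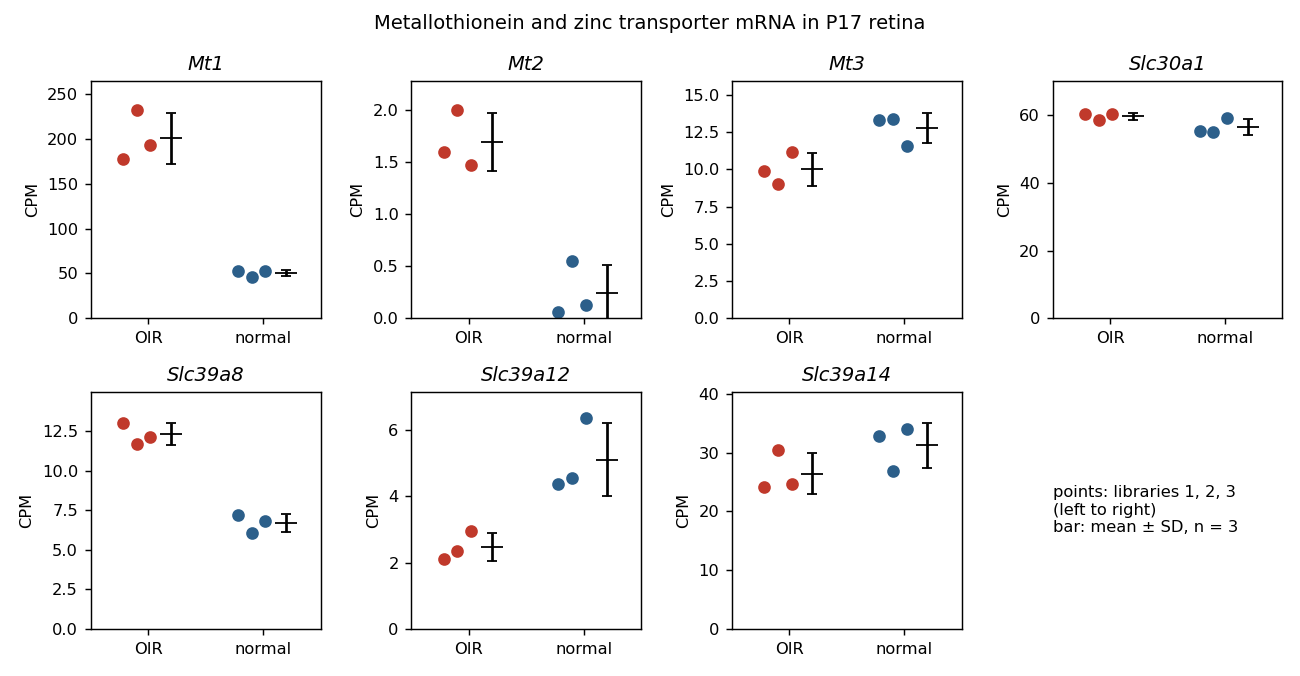
Level of each gene in CPM on the y axis, each panel with its own linear scale from 0, for the 3 OIR libraries (left, red) and the 3 normal libraries (right, blue), with the mean and SD as bars cut at 0. The 3 OIR libraries of Mt1 lie at 178 to 233 CPM, above the normal libraries at 46.5 to 52.7 CPM, while Slc39a12 lies lower in all 3 OIR libraries.

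Mt1, the main inducible metallothionein gene in these counts, was 3.98-fold higher in OIR retina. It lies on chromosome 8 from 94179082 to 94180327 on the plus strand (mm10, ENSMUSG00000031765). The deposited counts of Mt1 were 3020, 3956 and 3281 in the OIR libraries, against 879, 764 and 819 in the normal libraries. In CPM these were 178, 233 and 193 in OIR retina, against 52.7, 46.5 and 52.7 in normal retina. Every OIR library thus stood well above every normal library, and OIR library 2 was the highest. Mt1 averaged 201 ± 28.6 CPM in OIR retina and 50.6 ± 3.58 CPM in normal retina (SD, n = 3 each), which edgeR fitted as a log2 change of 1.99 with a standard error of 0.105 and an adjusted p of 1.15e-06. Mt1 took 0.0182% to 0.0237% of all counts in OIR libraries and 0.00462% to 0.00518% in normal libraries. Of the 1901 genes that rose, 259 rose by more than Mt1 on the log2 scale.

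Mt2, the gene next to Mt1 and known to be induced with it, was also higher in OIR retina, on far fewer counts. It lies on chromosome 8 from 94172664 to 94173568 on the plus strand (mm10, ENSMUSG00000031762). The counts of Mt2 were 27, 34 and 25 in the OIR libraries, against 1, 9 and 2 in the normal libraries. Every normal library was below the filter's minimum count of 10, so Mt2 entered the test through its OIR libraries alone. In CPM they were 1.59, 2.00 and 1.47 in OIR retina, against 0.0599, 0.547 and 0.129 in normal retina. The groups did not overlap, and normal library 2 lay apart from the other 2 normal libraries. In edgeR, Mt2 rose by 2.74 ± 0.553 (SE) on the log2 scale with an adjusted p of 0.00581, or 6.68-fold. The unadjusted 95% interval ran from 2.86-fold to 15.6-fold. Without normal library 2 the log2 change was 4.07 and the ratio of summed counts, 86 in OIR retina to 3 in normal retina, was 18.1 after scaling, with a 95% Clopper-Pearson interval of 6.00 to 89.7 that covers counting error only. The size of the Mt2 change is therefore poorly fixed at these counts, while its direction was the same in all alternatives run.

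The low count of Mt2 came with an overlapping gene. Gm45774, an antisense gene on the minus strand, covers 432 of the 588 exon bases of Mt2, or 73.5%, and leaves 156 bases that belong to Mt2 alone in the GENCODE vM21 annotation of mm10. Gm45774 itself held 17 counts over the OIR libraries and 7 over the normal libraries. The library kit normally keeps no record of strand, and featureCounts by default leaves out reads that touch exons of more than 1 gene. Which settings were used is not stated in the sources at hand. How many Mt2 reads were left out was not tested, so the level of Mt2 against other genes is uncertain. Transcripts of Mt1, Mt2 and Mt3 shared no identical run longer than 27 bases, so their reads can be told apart by sequence.

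**Figure D2:**
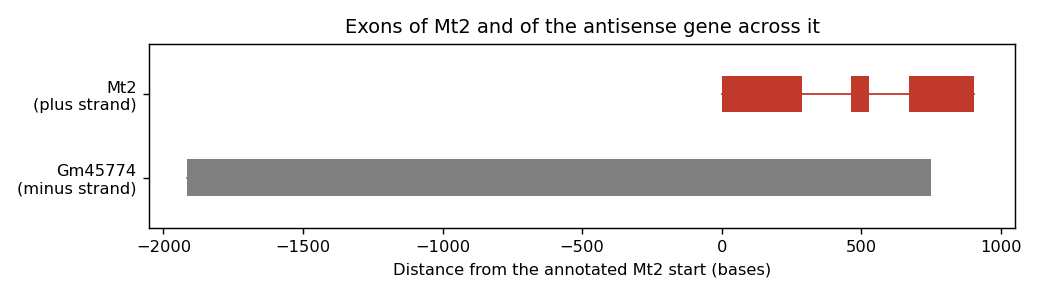
Exons (boxes) of Mt2 on the plus strand and of Gm45774 on the minus strand, with distance from the annotated Mt2 start in bases on the x axis. The antisense exon reaches 748 bases past the Mt2 start and leaves only the last 156 exon bases of Mt2 uncovered.

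Mt3, the metallothionein gene typical of the nervous system, did not pass the test, and all its OIR libraries were lower than its normal ones. It lies on chromosome 8 from 94152607 to 94154146 on the plus strand (mm10, ENSMUSG00000031760). Mt3 had 9.90, 9.02 and 11.2 CPM in OIR retina, against 13.3, 13.4 and 11.6 CPM in normal retina. The groups did not overlap, though OIR library 3 and normal library 3 were close. The log2 change was -0.35 with a standard error of 0.134, which did not pass (edgeR adjusted p of 0.0994), and its unadjusted 95% interval ran from -0.64 to -0.05. Mt1 made up 93.9% to 95.5% of the summed counts of the 3 metallothionein genes in OIR libraries and 76.9% to 81.8% in normal libraries. These shares include the Mt2 count, which is uncertain for the antisense overlap described above.

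A ratio of genes within a library does not depend on how libraries are scaled, and 3 such ratios were compared. Mt1 plus Mt2 over Mt3 was 18.1, 26.1 and 17.4 in OIR libraries, against 3.96, 3.51 and 4.56 in normal libraries. The OIR ratios were all higher, with a difference in mean log2 ratio of 2.34, or 5.06-fold, and an exact two-sided permutation test gave p = 0.1, the smallest that 3 libraries against 3 allow (0.15 adjusted over the 3 ratios). Mt1 over Mt2 was 112, 116 and 131 in OIR libraries, against 879, 84.9 and 409.5 in normal libraries. These ranges overlapped (log2 difference -1.39, exact permutation p = 0.4, also 0.4 adjusted). The normal ratios rest on Mt2 counts of 1, 9 and 2, and the test cannot give a p under 0.1. It therefore cannot tell whether Mt1 and Mt2 changed unequally.

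Among the zinc importer genes, Slc39a8 rose and Slc39a12 fell. Slc39a8 encodes ZIP8, an importer of zinc and manganese at the cell surface, and lies on chromosome 3 from 135825279 to 135888572 on the plus strand (mm10, ENSMUSG00000053897). It had 13.0, 11.7 and 12.1 CPM in OIR retina, against 7.19, 6.08 and 6.82 CPM in normal retina. Replicates of Slc39a8 lay close together and the groups stood apart. The rise was 0.87 ± 0.135 (SE) on the log2 scale, or 1.83-fold (edgeR adjusted p of 0.00125).

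Slc39a12 encodes ZIP12, a zinc importer known from brain, and lies on chromosome 2 from 14388316 to 14494977 on the plus strand (mm10, ENSMUSG00000036949). Its counts were 36, 40 and 50 in OIR libraries, against 73, 75 and 99 in normal libraries, or 2.12, 2.36 and 2.94 CPM in OIR retina, against 4.37, 4.56 and 6.37 CPM in normal retina. All OIR libraries were lower than all normal libraries, and normal library 3 was the highest. On the log2 scale the change was -1.04 ± 0.237 (SE), a level 2.06-fold lower in OIR retina (edgeR adjusted p of 0.0111). Without normal library 3 the change was -0.85 and no longer passed (adjusted p of 0.0622). Of the 1493 genes that fell, 107 fell by more than Slc39a12 on the log2 scale.

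Markers of other cells moved beside Slc39a12. Of 12 pigment epithelium markers, 7 fell and 0 rose in the edgeR test, the median log2 change was -0.92, and their summed level was 162 to 205 CPM in OIR libraries and 274 to 490 CPM in normal libraries. Of 13 Müller glia markers, 5 fell and 2 rose, with a median log2 change of -0.23 and sums of 4510 to 5380 CPM in OIR libraries and 5560 to 6460 CPM in normal libraries. Of 8 astrocyte markers, 4 rose and 0 fell, at a median log2 change of 0.76 and with sums of 415 to 527 CPM in OIR libraries and 140 to 162 CPM in normal libraries. Gfap was the largest part of the OIR sums, with 273, 299 and 213 CPM, against 21.4, 24.4 and 20.6 CPM in normal libraries. Of the astrocyte markers that did not pass, S100b, Gja1 and Igsf1 had log2 changes of -0.238, -0.216 and -0.185, and Pax2 had 0.696. No listed marker of these 3 cell types was at 0 in any library. The part of these cells in the change of Slc39a12 was not tested.

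**Figure D3:**
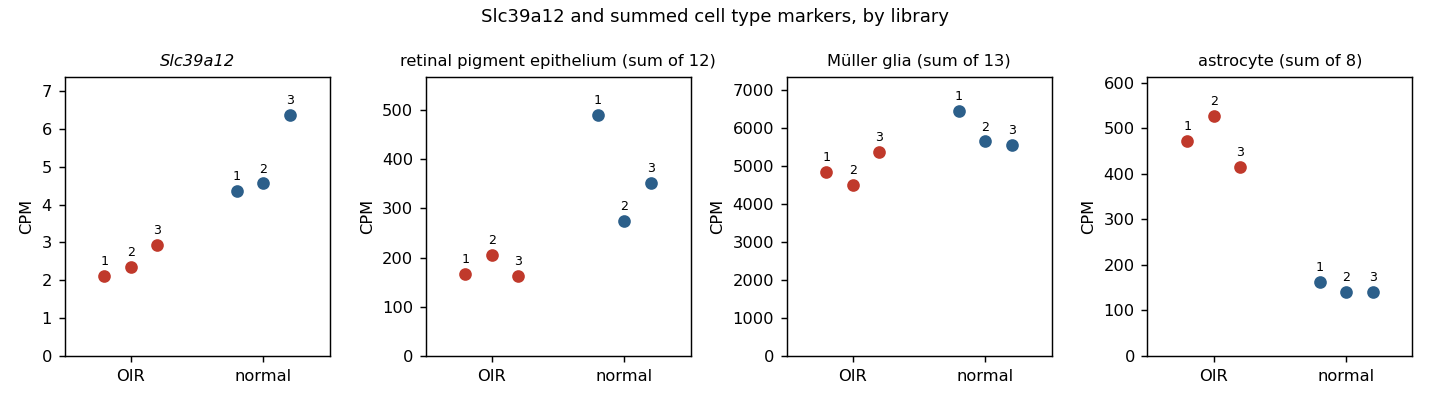
Level of Slc39a12 and the summed levels of pigment epithelium, Müller glia and astrocyte markers, in CPM on linear y axes from 0, for OIR (left, red) and normal (right, blue) libraries numbered 1 to 3. Slc39a12, pigment epithelium and Müller sums are lower in all 3 OIR libraries, and the astrocyte sum is higher. Gfap is the largest part of the astrocyte sum in OIR libraries.

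Markers of other cells also moved beside the rise of Mt1, Mt2 and Slc39a8. Of 11 markers of microglia and macrophages, 7 rose and 0 fell, and they had sums of 134 to 178 CPM in OIR libraries and 73.4 to 89.6 CPM in normal libraries and a median log2 change of 1.06. Of 10 endothelial markers, 8 rose and 1 fell, and they had sums of 630 to 718 CPM in OIR libraries and 409 to 472 CPM in normal libraries and a median log2 change of 1.27. Of 5 erythroid genes, 4 rose and none fell, with sums of 175 to 210 CPM in OIR libraries and 60.3 to 90.3 CPM in normal libraries. Of 10 rod markers, 4 fell and none rose. Their part in the metallothionein and Slc39a8 changes was not tested.

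Slc30a1, which encodes the zinc exporter ZnT1 of the plasma membrane and is a classical MTF1 target, did not pass. It lies on chromosome 1 from 191906767 to 191913247 on the plus strand (mm10, ENSMUSG00000037434). It had 60.4, 58.6 and 60.4 CPM in OIR retina, against 55.3, 55.0 and 59.2 CPM in normal retina, and the groups overlapped. The log2 change was 0.08 with a standard error of 0.0716 (edgeR adjusted p of 0.477), and the unadjusted 95% interval ran from 0.949-fold to 1.18-fold. An antisense gene, 1700034H15Rik, covers 8.92% of its exon bases, and reads there cannot be told apart without strand.

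Slc39a14, which encodes the zinc, iron and manganese importer ZIP14, did not pass either. It lies on chromosome 14 from 70303469 to 70351425 on the minus strand (mm10, ENSMUSG00000022094). It had 24.1, 30.4 and 24.7 CPM in OIR retina, against 32.8, 26.9 and 34.0 CPM in normal retina. OIR library 2 lay above normal library 2, so the groups overlapped. The log2 change was -0.24 with a standard error of 0.122 (edgeR adjusted p of 0.198), and the unadjusted 95% interval ran from 0.701-fold to 1.02-fold. Slc39a14 over Slc39a12 was 11.4, 12.9 and 8.40 in OIR libraries, against 7.51, 5.91 and 5.33 in normal libraries. This ratio was higher in every OIR library, with a difference in mean log2 ratio of 0.79 (exact two-sided permutation p = 0.1, the smallest possible, and 0.15 adjusted).

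Levels of different genes were compared per length, as TPM, transcripts per 1e6 computed from the counts and the deposited gene lengths. In OIR retina Mt1 was the highest of the 7 genes at 605 ± 81.0 TPM (SD, n = 3), followed by Slc30a1 at 42.7 ± 1.39, Mt3 at 35.2 ± 3.44, Mt2 at 10.8 ± 1.8, Slc39a14 at 9.37 ± 1.19, Slc39a8 at 6.00 ± 0.471 and Slc39a12 at 3.08 ± 0.452 TPM. Mt2 and Slc39a14 overlapped in the OIR libraries, and the place of Mt2 is uncertain for the antisense overlap described above. In normal retina the order was Mt1 at 147 ± 9.05, Mt3 at 43.2 ± 4.20, Slc30a1 at 39.0 ± 3.61, Slc39a14 at 10.7 ± 1.13, Slc39a12 at 6.18 ± 1.55, Slc39a8 at 3.15 ± 0.137 and Mt2 at 1.57 ± 1.74 TPM. Mt3 and Slc30a1 overlapped in the normal libraries, as did Slc39a8 and Mt2. The deposited lengths join the exons of all annotated transcripts of a gene, and the order changed when CPM was divided by the length of the principal spliced transcript in GENCODE vM21. Mt1, with 549 bases on this scale against 1246 deposited, was still the highest, at 367 ± 52.1 CPM per kilobase in OIR retina and 92.2 ± 6.51 in normal retina. Mt3, with 536 bases against 1066, then stood above Slc30a1 in every library of both groups, at 18.7 ± 2.0 CPM per kilobase in OIR retina and 23.8 ± 1.91 in normal retina, while Slc30a1 was at 11.4 ± 0.195 in OIR retina and 10.8 ± 0.444 in normal retina. Slc39a14 came next, at 5.36 ± 0.703 CPM per kilobase in OIR retina and 6.34 ± 0.764 in normal retina, and Mt2 was at 3.30 ± 0.55 in OIR retina and 0.48 ± 0.516 in normal retina. Slc39a8 was at 3.47 ± 0.194 CPM per kilobase in OIR retina and 1.90 ± 0.16 in normal retina, and Slc39a12 was at 0.924 ± 0.157 in OIR retina and 1.91 ± 0.411 in normal retina. Slc39a8 stood above Slc39a12 in every OIR library on both scales, but in normal libraries Slc39a8 was the lower of the pair in TPM and overlapped with Slc39a12 per kilobase of the principal transcript.

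Of the other zinc transporter genes, 1 passed the test. Of 10 further genes, the exporters Slc30a2 to Slc30a10 and the epithelial metallothionein gene Mt4, 8 were tested. None of them passed in edgeR, DESeq2 or limma-voom, and 0 had an unadjusted p under 0.05 in edgeR; the median log2 change was -0.02. Mt4 had 1 count in all libraries together and was not tested, nor was the beta-cell exporter gene Slc30a8. The most abundant of this list were Slc30a9, at 221 ± 5.19 CPM in OIR retina and 216 ± 6.37 CPM in normal retina, and Slc30a4, at 70.1 ± 3.44 CPM in OIR retina and 73.9 ± 6.75 CPM in normal retina (SD, n = 3 each). All 11 further Slc39a importer genes were tested, and 1 rose while 0 fell in edgeR and in DESeq2 (1 was higher and 1, Slc39a10, lower at an unadjusted p under 0.05). Their median log2 change was 0.08. The gene that rose was Slc39a1, a broadly expressed zinc importer of the plasma membrane, with 66.2, 70.2 and 60.9 CPM in OIR retina, against 45.8, 39.8 and 44.2 CPM in normal retina. Its groups did not overlap and its log2 change was 0.60, or 1.52-fold (edgeR adjusted p of 0.00074). Slc39a3 and Slc39a9 had log2 changes of 0.03 and -0.04.

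**Figure D4:**
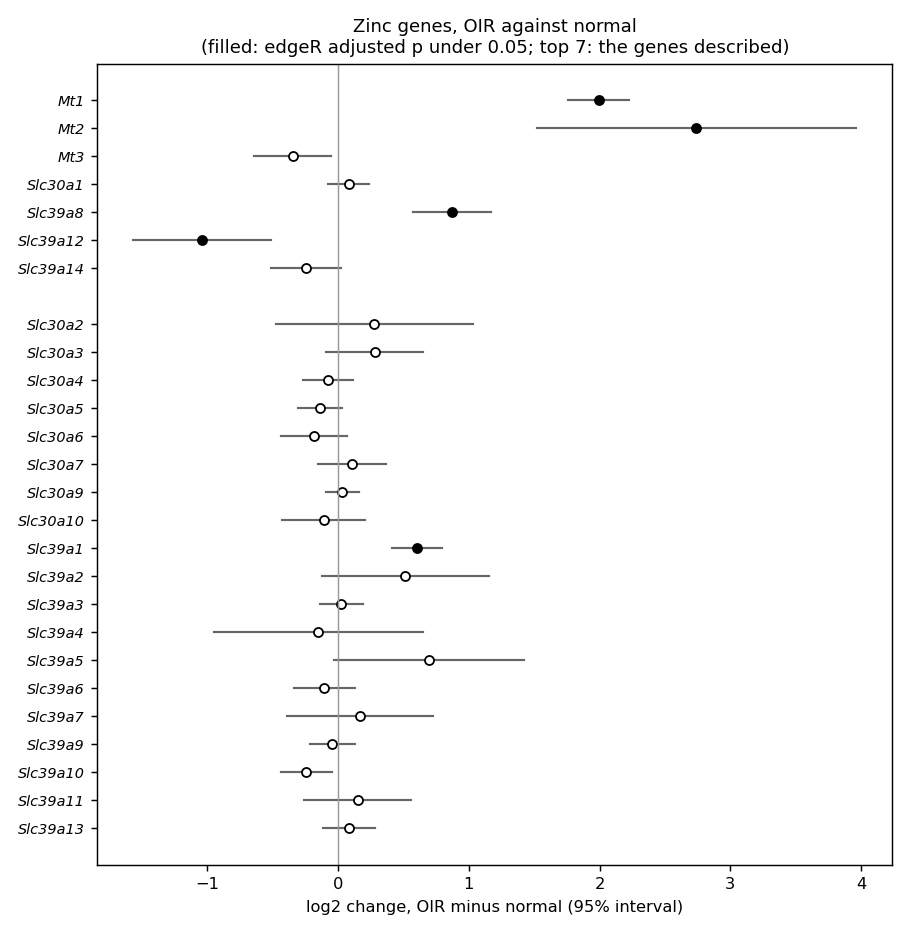
Log2 change (OIR minus normal, x axis) with its unadjusted 95% interval for the 7 genes at the top and the other tested Slc30a and Slc39a genes below; filled points passed edgeR's test at an adjusted p under 0.05. Mt1 and Mt2 lie farthest to the right, at 1.99 and 2.74, and Slc39a12 farthest to the left, at -1.04.

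MTF1 is the zinc sensor, and 5 of its other known targets were listed with it. Of 6 listed genes, all tested, Csrp1 rose and 0 fell in edgeR and in DESeq2 (1 was higher and 1 lower at an unadjusted p under 0.05). The lower gene was again Slc39a10, a zinc importer gene in both lists, with a log2 change of -0.24. The median log2 change was 0.01. Neither the counts nor the median take into account whether MTF1 raises or lowers each gene. Csrp1, a LIM-domain protein gene that MTF1 is known to control in mouse liver, had 75.8, 95.8 and 83.8 CPM in OIR retina, against 35.0, 31.4 and 25.6 CPM in normal retina. Every OIR library was higher, and edgeR gave a log2 change of 1.47 with an adjusted p of 2.09e-05, and this gene is also known from smooth muscle. Mtf1 itself had a log2 change of -0.05 (adjusted p of 0.699). The stress-responsive gene Ndrg1 and the selenoprotein gene Selenow had log2 changes of 0.07 each and did not pass.

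Of 8 genes of copper transport and copper chaperones, which share metallothionein as a metal store, 1 rose and 0 fell in edgeR and in DESeq2 (3 were higher and 0 lower at an unadjusted p under 0.05). The median log2 change was 0.17. Atp7a, the copper-exporting ATPase gene, had 23.9, 22.6 and 22.8 CPM in OIR retina, against 16.5, 19.8 and 17.9 CPM in normal retina (log2 change 0.36, edgeR adjusted p of 0.0408). This call was lost without OIR library 1, 2 or 3 or normal library 1 or 3 (log2 changes 0.33, 0.36, 0.36, 0.30 and 0.35), with the replicate number as a block (adjusted p of 0.0952) and with sex as a covariate (log2 change 0.32, adjusted p of 0.0742). The copper transporter genes Slc31a1 and Slc31a2 had log2 changes of 0.07 and 0.16 and did not pass.

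Of 9 glucocorticoid-responsive genes, 7 were tested, and 1 rose while 0 fell in edgeR (1 fell in DESeq2, and 1 was higher and 2 lower at an unadjusted p under 0.05). The median log2 change was -0.05. Per1, a clock gene that glucocorticoids also induce, had 94.0, 97.7 and 104 CPM in OIR retina, against 84.5, 78.6 and 77.3 CPM in normal retina (log2 change 0.30, edgeR adjusted p of 0.0169). It no longer passed without OIR library 2 (0.30), OIR library 3 (0.25) or normal library 3 (0.27). The glucocorticoid receptor gene Nr3c1 and its target Klf9 had log2 changes of -0.05 and 0.02, and neither passed. Tsc22d3, the gene of the glucocorticoid-induced leucine zipper, had a log2 change of -0.35 (adjusted p of 0.0812 in edgeR and 0.0392 in DESeq2), and Zbtb16, a zinc finger gene that glucocorticoids induce, had -0.67 (0.102 in edgeR and 0.0848 in DESeq2). The remaining tested genes, Fkbp5 and Sgk1, had log2 changes of 0.16 and -0.09 and did not pass (edgeR adjusted p of 0.354 and 0.569). Over these lists together, with Slc39a10 counted once, 4 of 39 tested genes rose and 0 fell in edgeR, or 10.3%, against 19.8% of all genes tested. In DESeq2, 4 rose and 1 fell, and at an unadjusted p under 0.05 in edgeR 6 were higher and 3 lower.

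Genes with the closest profile to each of the 7 were found by Pearson's r of log2 CPM over the 6 libraries, among 10792 genes with a mean of at least 10 CPM. They were Dock1, Loxl2 and Plat for Mt1 (r of 0.999 each), Lekr1, Ppp2r5a and Filip1l for Mt2 (0.994 to 0.997), and Fbxo32, Ppp5c and Hmgn3 for Mt3 (0.987 to 0.993). For the transporters they were Enc1, Sdad1 and Nrp2 for Slc30a1 (0.969 to 0.976), Inppl1, Serpine2 and Ogfod2 for Slc39a8 (0.996 to 0.998), Pcdh19, Dock4 and Usp46 for Slc39a12 (0.996 to 0.997), and 1500004A13Rik, Sfmbt1 and Orai2 for Slc39a14 (0.968 to 0.978). All these values rest on the same 6 libraries, so a difference between the 2 groups enters each r, and they are given as a description.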

How the data were processed

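Total RNA of mouse retina was sequenced in 3 OIR and 3 normal libraries. The authors deposited unnormalized read counts per gene for each library, beside gene lengths. The submitters' processing notes name HISAT2 2.0.5 and featureCounts 1.5.0-p3, besides fastp, CASAVA 1.8 and DESeq2 1.20.0, and the build mm10. The sources used here do not give the annotation release, strand setting or read filters. Columns were matched to samples by group, day and number in their names.

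All 6 libraries entered a quasi-likelihood fit in edgeR 4.0.16 under R 4.3.3 with TMM scaling, no covariate, filterByExpr (minimum count 10, total 15) and Benjamini-Hochberg adjustment over 17108 genes, with a threshold of 0.05. The genes left out held 0.164% of counts. Standard errors are the log2 change over the square root of F. No 2 libraries of a group were near-copies, since chi-square over its degrees of freedom was 7.20 to 23.1 for each pair. The tests were tested on simulated data. Promoters are from RefSeq (GRCm38.p6), with 6 of the 7 genes matched by symbol, and exons and principal transcripts (APPRIS) from GENCODE vM21. The lengths of principal transcripts were applied to all 7 genes after the TPM order was seen.

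The 7 genes, the lists and the rule for named genes were chosen with earlier results of these data known. The rule named all 7 genes, up to 4 genes with the smallest adjusted p of each pathway list or, where fewer than 2 passed, the 2 most abundant, and the 3 genes with the closest profile. Mt4, Slc30a8, Slc30a7, Slc39a4, Slc39a10, Slc39a11, Mtf1, Tsc22d3, Zbtb16, Fkbp5, Sgk1, Gm45774 and 1700034H15Rik fall outside that rule and were picked with their values known. The settings tried were DESeq2 1.42.0, limma-voom (limma 3.58.1), median-of-ratios size factors, library totals, no filter, a filter of 1 CPM in 3 libraries, sex as a covariate, a block for the replicate number, each library left out and a threshold of 0.01.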

Additional observations from a re-analysis of the deposited data

How the results depend on the processing

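Mt1, Mt2 and Slc39a8 passed as higher under all 15 alternatives, with log2 changes of 1.86 to 2.07, 2.28 to 4.07 and 0.81 to 0.93, and Mt3, Slc30a1 and Slc39a14 passed under none. Slc39a12 ranged from -1.19 to -0.85. It was the single lower gene of the 7, so that count ranged from 0 to 1 with a library left out (0 without normal library 3) and was 0 at an adjusted p under 0.01. Among the other zinc and metal genes, 4 were higher and 0 lower by edgeR, and at an adjusted p under 0.01 the count of higher genes was 2. With 1 library left out it ranged from 2 to 4 for higher genes and from 0 to 2 for lower genes. The lower count was 1 with DESeq2 (Tsc22d3) and 2 without a filter (Tsc22d3 and Zbtb16).

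Signs of some genes that had not passed turned with a library left out: Slc30a7 ranged from -0.016 to 0.21 on the log2 scale, Slc39a3 from -0.018 to 0.095, Slc39a4 from -0.36 to 0.13, Slc39a9 from -0.076 to 0.015, Slc39a11 from -0.016 to 0.30 and Ndrg1 from -0.0018 to 0.098. With library totals alone Slc39a9 was 0.0011. The 3 within-library log2 ratios ranged from -2.33 to -0.64 for Mt1 over Mt2, from 2.15 to 2.45 for Mt1 plus Mt2 over Mt3 and from 0.66 to 0.97 for Slc39a14 over Slc39a12 with a library left out.

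Deviations of same-numbered libraries correlated at 0.0612, -0.164 and 0.074, and those of differently numbered libraries at -0.184 to 0.0977. This gave no sign that replicate numbers pair the samples, though it cannot show that they do not. With the replicate block, 3 of the 7 genes were higher and 1 lower, as without it, 3 of the other zinc and metal genes were higher, and the ratios gave differences of -1.39, 2.34 and 0.79. Over all genes, 1901 higher and 1493 lower calls became 1680 and 1166 with the block. They became 1237 and 769 without normal library 3, the lower count was 761 without OIR library 1 and 860 without OIR library 2, and 1116 and 647 remained past 0.01. Low counts limit Mt2 above all, with 12 in the normal libraries. The causes were not tested.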
